A study of Mus musculus with 2 samples.

Results

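The enzymes and transporters that break down glucose were compared between unstimulated bone marrow-derived macrophages that carry the T403A form of STAT2 and wild-type (WT) macrophages. The members were 47 genes, chosen as the rows of the deposited count table whose Ensembl identifiers carry the listed symbols of glycolysis, lactate handling, pyruvate entry, the pentose phosphate pathway and the tricarboxylic acid (TCA) cycle, out of 22060 rows. All 47 were present and all had a summed count of at least 20 in the libraries, the condition for a gene to be treated as measured. STAT2 carries type I interferon signals to the nucleus as part of the complex ISGF3, and T403A exchanges a threonine of the protein for alanine. Cells of both genotypes came from the marrow of C57BL/6 mice aged 8 weeks, were cultured for 7 days in M-CSF, which drives marrow progenitors to become macrophages, and are labelled 0 h with no treatment. The sources used here do not give how the T403A allele was made, the sex of the mice or how many contributed.

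There was 1 library for T403A (18658381 counts) and 1 for WT (16033032 counts). No difference therefore has a replicate check, no p-value can be given, and genotype, animal, culture and library preparation cannot be told apart. Counts were scaled by TMM, a method that assumes most genes are alike between libraries, and are given as CPM, counts per 1000000 scaled counts. Each ratio is T403A over WT with an exact 95% interval that covers counting error only, so narrow intervals reflect deep counts and not reproducibility. Stat2 itself was at 84.4 CPM in T403A and 376 CPM in WT. Of 12 macrophage markers all were detected in both libraries, and at least 1.5-fold 7 were lower and 1 (Mrc1) was higher in T403A. By the same rule, given below, 10.8% of all measured genes were lower and 13.5% higher. Csf1r, the M-CSF receptor, was at 5503 CPM in T403A and 7146 CPM in WT. The T cell gene Cd3e and the granulocyte gene Ly6g were at 0 in both libraries. The 9 neutrophil genes listed together reached 11.3 CPM in T403A and 8.80 CPM in WT. Of the 5 that were measured, S100a9 and Ltf were called higher and Camp lower in T403A. The 7 lymphocyte genes listed, none of them measured, summed to 0.301 CPM in T403A and 0.200 CPM in WT. In RNA from a whole culture, fewer cells of a type and less RNA per cell cannot be told apart.

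Glycolysis splits glucose into pyruvate in the cytosol and yields ATP and NADH, and lactate dehydrogenase regenerates the NAD that keeps it running. The pentose phosphate pathway branches off at glucose-6-phosphate and makes NADPH and ribose, and the TCA cycle oxidises the acetyl group of pyruvate in mitochondria. Macrophages are known to raise glycolysis and lactate export when they are activated by inflammatory signals or deprived of oxygen.

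The T403A library had lower counts for most of glycolysis and for lactate handling, while the pentose phosphate and TCA enzymes were mostly within 1.5-fold of the WT level. A member was called lower or higher when the libraries differed by at least 1.5-fold and the interval excluded 1. By this rule 15 of the 47 members (31.9%) were lower and 5 (10.6%) were higher in T403A, and with library total scaling 12 were lower and 8 higher. With library total scaling the same rule called 890 of all 11199 measured genes lower and 2290 higher. Under TMM it called 10.8% of these genes lower and 13.5% higher. In the 8182 genes that averaged 10 CPM or more it called 10.6% lower and 8.30% higher. At 2-fold, 10 members were lower and 1 was higher, beside 6.08% lower and 7.21% higher of all measured genes and 5.44% lower and 3.04% higher of those that averaged 10 CPM or more. The median log2 ratio of the members was -0.11, beside 0.01 for all measured genes. When counts are divided by library totals it was 0.08, beside 0.20 for all measured genes. Its sign thus depends on scaling. The members' median lay below that of all measured genes by the same distance in both cases. This holds by construction, because library total scaling shifts every log2 ratio by the same amount. In the genes that averaged 10 CPM or more the median under TMM was -0.03, nearer to that of the members.

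The 5 groups of members differed in how many were called. In glycolysis 11 of 20 were lower and 4 higher (median log2 ratio -0.77), and in lactate handling 3 of 4 were lower and none higher (-1.11). Of 3 genes of pyruvate entry 1 was lower (-0.05). In the pentose phosphate pathway 0 of 7 were lower and 0 higher (-0.01). In the TCA cycle 0 of 13 were lower and 1 was higher (0.25). Summed over members, glycolysis took 5350 CPM in T403A and 8981 CPM in WT, a ratio of 0.596 (95% interval 0.591 to 0.601). The pentose phosphate pathway took 3020 CPM in T403A and 3116 CPM in WT, a ratio of 0.969 (0.958 to 0.981). The TCA cycle took 1725 CPM in T403A and 1323 CPM in WT, a ratio of 1.3 (1.28 to 1.33), and much of the difference came from the cytosolic enzyme gene Idh1. Without Idh1, a comparison chosen after seeing the data, the sum was 1071 CPM in T403A and 967 CPM in WT, a ratio of 1.11 (1.08 to 1.13). With library total scaling, the log2 ratio of every gene was higher by 0.19, so the distances between the groups were the same, while the calls were 9 lower and 4 higher in glycolysis, 2 lower in lactate handling and 4 higher in the TCA cycle. The pentose phosphate sum then stood at a ratio of 1.11, on the other side of 1.

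**Figure D1:**
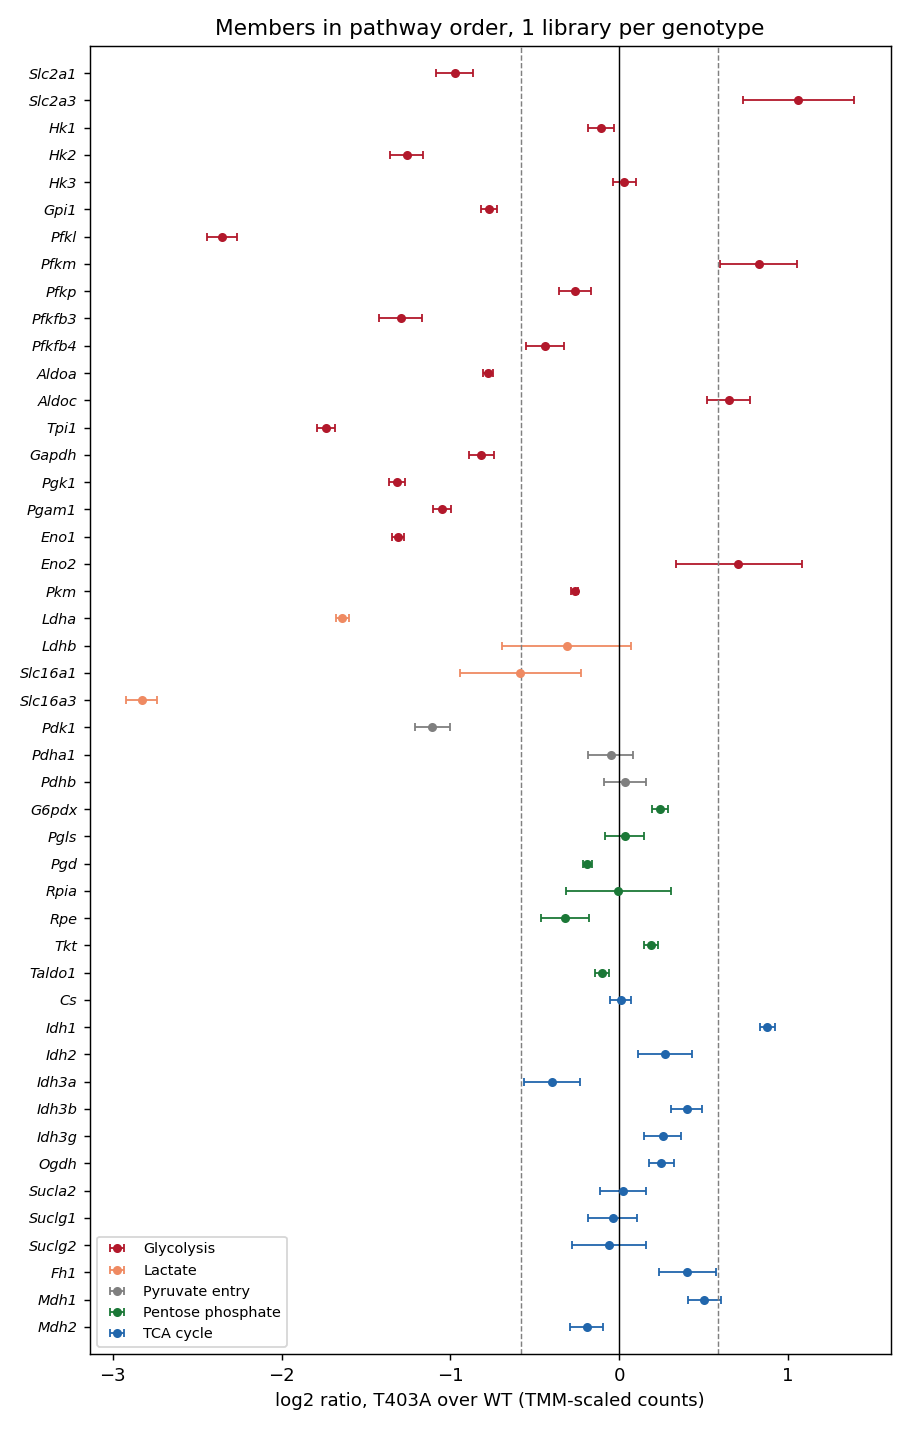
Log2 ratio of T403A over WT (horizontal axis, TMM-scaled counts) for each of the 47 members in pathway order from top to bottom, coloured by pathway. Bars are exact 95% counting intervals from 1 library per genotype, and dashed lines mark 1.5-fold; most glycolysis and lactate points lie left of the line, and 19 of the 20 pentose phosphate and TCA points lie between the lines.

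**Figure D2:**
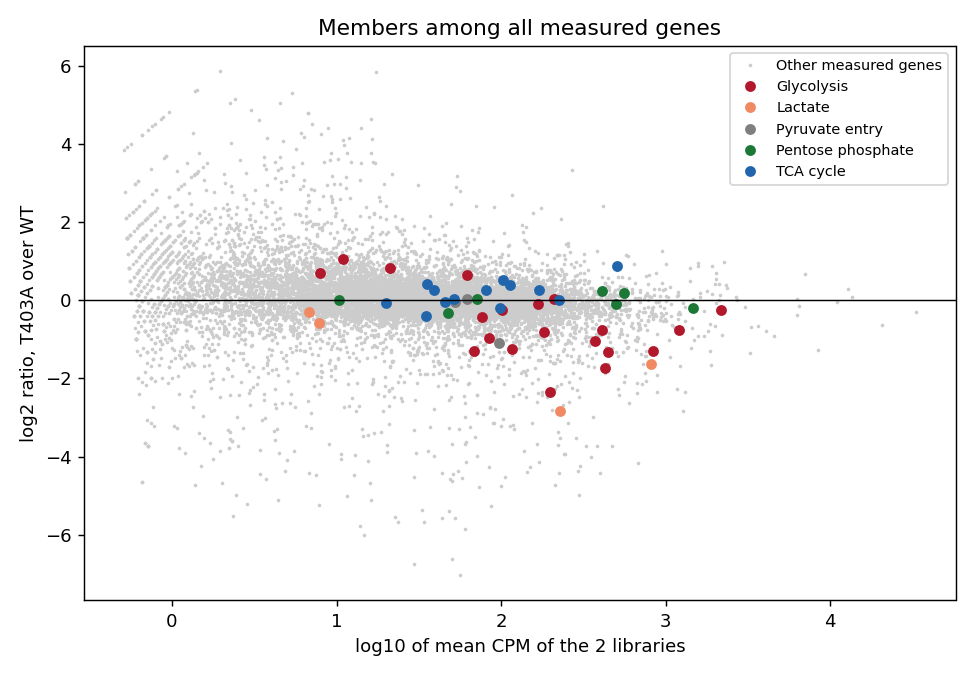
Log2 ratio of T403A over WT against log10 of the mean CPM of the libraries for the 47 members (coloured) and the other measured genes (grey), with 17 genes that had a count of 0 in one library not drawn. Except Slc16a1, at 6.22 CPM in T403A and 9.33 CPM in WT, the glycolysis and lactate members called lower averaged over 10 CPM.

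Several copies of these genes limit the counts. A search of GENCODE M21 transcripts found at least 1 other gene with a stretch of 200 bases or more at 95% identity or more to the coding sequence of 10 members. These were Gpi1, Tpi1, Gapdh, Pgk1, Pgam1, Eno1, Ldha, Ldhb, Pdhb and Suclg2. Gapdh had 79 such genes, mostly processed pseudogenes, and they cover 94.4% of its coding sequence. The sources used here do not give how reads that align to several places were counted, so levels of these members are uncertain and their reads may be split. Of the 10 members with a copy 7 were lower, and of the 37 without a copy 8 were lower (21.6%) and 5 higher (13.5%). Among the 16 glycolysis and lactate genes without a copy, 7 were lower and 4 higher, and their median log2 ratio was -0.35.

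Glucose enters through transporters, of which Slc2a1 encodes GLUT1, the widespread carrier of resting and activated cells. All positions are those of the whole gene on GRCm38, and each gene named with one is protein-coding. Slc2a1 (ENSMUSG00000028645, chromosome 4, 119108711 to 119137983, plus strand) was at 57.3 CPM in T403A and 113 CPM in WT, 1.96-fold lower (95% interval 1.82 to 2.12). Slc2a3 encodes GLUT3, a high-affinity carrier best known from neurons. Slc2a3 (chromosome 6, 122727809 to 122801640) was at 14.8 CPM in T403A and 7.13 CPM in WT, 2.08-fold higher (1.66 to 2.62), and was the member with the highest ratio. The transporters thus stood on opposite sides, but Slc2a1 was the more abundant in both libraries. Per kilobase of gene length, Slc2a1 exceeded Slc2a3 by 7.97-fold in T403A and by 32.6-fold in WT. The ratio of Slc2a3 to Slc2a1 was 4.09-fold higher in T403A (3.22 to 5.21), a value that no library scaling changes.

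Hexokinases trap glucose as glucose-6-phosphate. Of the 3 members only Hk2, the inducible form, was called. Hk2 (chromosome 6, 82725025 to 82774454) was at 68.5 CPM in T403A and 164 CPM in WT, 2.39-fold lower (2.24 to 2.56). Hk1, the constitutive form, was at 162 CPM in T403A and 175 CPM in WT. Hk3, the form typical of myeloid cells, was at 212 CPM in T403A and 208 CPM in WT. Hk3 also led the step per kilobase, with 65.4% of the summed hexokinase level in T403A and 54.1% in WT, while Hk2 held 13.0% in T403A and 26.3% in WT. In plain counts Hk3 held 48.0% of the step in T403A and 38.1% in WT. The summed level of the step was 88.2 CPM per kilobase of gene length (RPKM) in T403A and 104 RPKM in WT, a ratio of 0.844, and the other two forms made up most of it in both libraries.

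Glucose-6-phosphate isomerase, the first glycolytic step after the pentose phosphate pathway has branched off, was called lower. Gpi1 (chromosome 7, 34201330 to 34230336) was at 304 CPM in T403A and 518 CPM in WT, 1.71-fold lower (1.65 to 1.76). With library total scaling its ratio was 0.670, which does not reach 1.5-fold. Exons of Gm26762 on the opposite strand overlap 11.5% of its exon bases.

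Phosphofructokinase-1, which commits sugar to glycolysis, showed the widest spread among isozymes of a single step. Pfkl, the liver-type form, had 1300 counts in T403A and 4990 in WT. Pfkl (ENSMUSG00000020277, chromosome 10, 77986947 to 78010083, minus strand) was at 65.2 CPM in T403A and 333 CPM in WT, 5.10-fold lower (4.80 to 5.43). Pfkm, the muscle-type form on chromosome 15 (98092589 to 98132451), was at 27.0 CPM in T403A and 15.3 CPM in WT, 1.77-fold higher (1.51 to 2.08). Exons of Gm26513, which has no row of its own, overlap 10.2% of those of Pfkm on the same strand. How far this affects the counts of Pfkm is not known. Pfkp, the platelet-type form, was at 92.5 CPM in T403A and 111 CPM in WT and was not called. The ratio of Pfkm to Pfkl was 9.03-fold higher in T403A (7.63 to 10.7) and that of Pfkp to Pfkl 4.25-fold higher (3.88 to 4.66). Per kilobase, Pfkl made up 39.4% of the step in T403A and 79.5% in WT, and Pfkm 32.7% in T403A and 7.29% in WT. Pfkp, with a deposited length of 13401 bases, is counted low by this measure, and in plain counts it held 50.1% of the step in T403A and 24.2% in WT. The step as a whole was at 24.8 RPKM in T403A and 62.7 RPKM in WT, 2.53-fold lower (2.42 to 2.65).

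The Pfkfb enzymes set the level of fructose-2,6-bisphosphate, the main activator of phosphofructokinase-1. Pfkfb3, the form with the strongest kinase activity, was at 39.8 CPM in T403A and 97.7 CPM in WT, 2.45-fold lower (2.25 to 2.68). Pfkfb4 was at 65.0 CPM in T403A and 88.1 CPM in WT, below the 1.5-fold limit. The ratio of Pfkfb4 to Pfkfb3 was 1.81-fold higher in T403A (1.61 to 2.04).

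From aldolase to enolase each of the 6 steps had its most abundant gene called lower. Aldoa, the main aldolase (chromosome 7, 126795234 to 126800751), was at 885 CPM in T403A and 1515 CPM in WT, 1.71-fold lower (1.68 to 1.75), or a ratio of 0.667 and no longer called with library total scaling. Aldoc, the brain-type aldolase, was at 76.0 CPM in T403A and 48.5 CPM in WT, 1.57-fold higher (1.43 to 1.71). Tpi1 interconverts the triose phosphates that aldolase makes. Tpi1 (ENSMUSG00000023456, chromosome 6, 124810586 to 124814296, minus strand) was at 197 CPM in T403A and 656 CPM in WT, 3.33-fold lower (3.21 to 3.46), the lowest ratio of the 12 glycolytic steps.

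Gapdh, the NADH-making step and a common reference gene in qPCR, was at 132 CPM in T403A and 233 CPM in WT, 1.76-fold lower (1.68 to 1.85). Per kilobase Gapdh stood at only 31.9 RPKM in T403A and 56.3 RPKM in WT, below the 5 other steps from aldolase to enolase, and this level is one of those that near-identical copies make uncertain. Pgk1, the first ATP-yielding enzyme, was at 256 CPM in T403A and 637 CPM in WT, 2.49-fold lower (2.41 to 2.58). Pgam1, which moves the phosphate group, was at 243 CPM in T403A and 503 CPM in WT, 2.07-fold lower (2.0 to 2.15).

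Eno1, the main enolase, was at 481 CPM in T403A and 1195 CPM in WT, 2.48-fold lower (2.42 to 2.55). Its near-identical copy Eno1b, which has a row of its own, was at 10.9 CPM in T403A and 32.5 CPM in WT. Eno2, the neuron-type enolase, had only 195 counts in T403A and 90 in WT, 1.63-fold higher (1.26 to 2.12). The ratio of Eno2 to Eno1 was 4.05-fold higher in T403A (3.13 to 5.26), although Eno1 made up 97.7% of the step per kilobase in T403A and 99.4% in WT. Pyruvate kinase closes the pathway. Pkm was at 1962 CPM in T403A and 2358 CPM in WT, a ratio of 0.832 (0.820 to 0.844) that was not called. The table counts Pkm as one gene, so its M1 and M2 splice forms were not separated. Exons of Gm49759 on the same strand overlap 15.3% of its exon bases.

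The 4 higher members of glycolysis, Slc2a3, Pfkm, Aldoc and Eno2, were in each case not the leading gene of their step in either library when read per kilobase. Their levels ran from 2.05 to 23.3 RPKM in T403A and from 0.984 to 14.9 RPKM in WT. The leading members of the same steps by this measure, Slc2a1, Pfkl, Aldoa and Eno1, were all called lower. In each of these steps the summed level was lower in T403A, with ratios of 0.556 for glucose uptake, 0.395 for phosphofructokinase-1, 0.611 for aldolase and 0.410 for enolase. In plain counts Pfkp, which was not called, led phosphofructokinase-1 in T403A with 50.1%, beside 35.3% for Pfkl. Slc2a6, a glucose transporter gene outside the members, stood above Slc2a1 per kilobase and was not called.

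**Figure D3:**
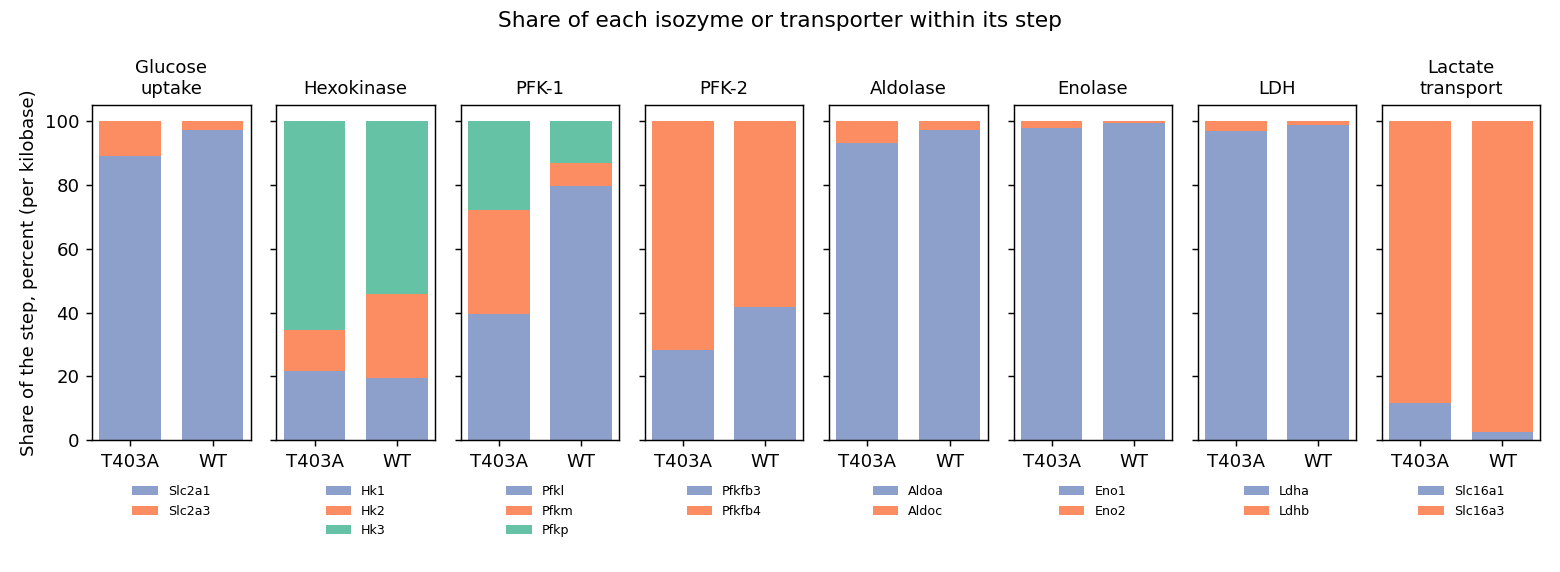
Share of each isozyme or transporter (vertical axis, percent of the summed level per kilobase of its step) in the T403A library (left bar of each panel) and the WT library (right bar), 1 library each. Pfkl fills 39.4% of phosphofructokinase-1 (PFK-1) in T403A and 79.5% in WT, and Hk2 fills 13.0% of hexokinase in T403A and 26.3% in WT.

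Lactate handling held the lowest ratio of all members. Ldha, whose product favours the conversion of pyruvate to lactate, was at 394 CPM in T403A and 1229 CPM in WT. Ldha (ENSMUSG00000063229, chromosome 7, 46841475 to 46855627, plus strand) was 3.12-fold lower (3.03 to 3.20). Ldhb, the heart-type subunit, had 121 counts in T403A and 113 in WT and was not called. Ldha made up 96.9% of the step per kilobase in T403A and 98.7% in WT.

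Slc16a3 encodes MCT4, the transporter by which glycolytic cells release lactate. Slc16a3 (ENSMUSG00000025161, chromosome 11, 120948480 to 120960868, plus strand) had 1132 counts in T403A and 6043 in WT. This is 56.8 CPM in T403A and 403 CPM in WT, 7.10-fold lower (6.66 to 7.57). Slc16a1 encodes MCT1, a carrier that works in both directions, and had 124 counts in T403A and 140 in WT. Its difference of 1.5-fold lower (1.17 to 1.93) lies at the limit and was not called with library total scaling. The ratio of Slc16a1 to Slc16a3 was 4.73-fold higher in T403A (3.65 to 6.12). Slc16a3 was still the more abundant of the pair per kilobase, by 7.60-fold in T403A and by 35.9-fold in WT.

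The promoters of the 4 members with the lowest ratios and of the 2 with the highest ratios that have an entry are shown because these genes stand at the ends of the range of ratios. Each is the 250 bases before a RefSeq start on GRCm38.p6, written 5′ to 3′ on the gene's strand. For genes with several starts it is the most upstream one. Capitals mark ACGTG on either strand (ACGTG or CACGT), the core of the element bound by hypoxia-inducible factor, which is also part of the E-box CACGTG. The windows are chr11:120948817-120949066 (plus strand) for Slc16a3, chr10:78009808-78010057 (minus) for Pfkl and chr6:124814159-124814408 (minus) for Tpi1. They are chr7:46845554-46845803 (plus) for Ldha, chr1:65186480-65186729 (minus) for Idh1 and chr15:98092339-98092588 (plus) for Pfkm.
Slc16a3: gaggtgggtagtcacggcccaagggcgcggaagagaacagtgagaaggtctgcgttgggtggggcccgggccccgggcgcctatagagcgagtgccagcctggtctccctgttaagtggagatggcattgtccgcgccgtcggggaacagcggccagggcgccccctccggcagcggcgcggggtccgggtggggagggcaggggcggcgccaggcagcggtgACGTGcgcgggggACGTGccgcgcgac
Pfkl: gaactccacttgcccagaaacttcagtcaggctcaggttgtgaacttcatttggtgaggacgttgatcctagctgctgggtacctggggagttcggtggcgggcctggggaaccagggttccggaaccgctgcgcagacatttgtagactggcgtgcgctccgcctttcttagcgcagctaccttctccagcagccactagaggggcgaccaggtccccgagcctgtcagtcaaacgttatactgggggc
Tpi1: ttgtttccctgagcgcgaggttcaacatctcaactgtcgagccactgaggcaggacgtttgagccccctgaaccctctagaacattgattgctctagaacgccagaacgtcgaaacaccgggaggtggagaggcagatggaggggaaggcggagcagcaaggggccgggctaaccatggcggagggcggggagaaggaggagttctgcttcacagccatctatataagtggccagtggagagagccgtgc
Ldha: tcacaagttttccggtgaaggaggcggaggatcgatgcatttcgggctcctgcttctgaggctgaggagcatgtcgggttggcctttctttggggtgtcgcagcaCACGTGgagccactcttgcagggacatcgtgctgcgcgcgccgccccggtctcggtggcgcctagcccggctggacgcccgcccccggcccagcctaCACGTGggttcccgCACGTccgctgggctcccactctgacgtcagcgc
Idh1: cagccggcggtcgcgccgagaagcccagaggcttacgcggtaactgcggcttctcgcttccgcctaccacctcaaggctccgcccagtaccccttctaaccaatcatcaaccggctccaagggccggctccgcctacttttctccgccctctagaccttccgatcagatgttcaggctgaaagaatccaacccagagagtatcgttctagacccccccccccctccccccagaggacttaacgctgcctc
Pfkm: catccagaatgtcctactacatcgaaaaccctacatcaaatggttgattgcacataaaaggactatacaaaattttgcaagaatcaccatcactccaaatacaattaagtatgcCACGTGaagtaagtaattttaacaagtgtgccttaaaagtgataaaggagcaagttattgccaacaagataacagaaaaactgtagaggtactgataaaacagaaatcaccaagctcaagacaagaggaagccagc

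In these windows Slc16a3 held 2 matches, 27 and 14 bases before the start, and Ldha held 5, which include the E-box at 2 places, each counted on both strands. Pfkm held the E-box once, and Pfkl, Tpi1 and Idh1 held no match. Ldha has a further start and Pfkm has 4 starts in all, and the Ldha window shown does not run into a transcript of GENCODE M21. Over all starts of a gene, 9 of the 15 lower members had a match (Aldoa, Hk2, Ldha, Pfkfb3, Pgam1, Pgk1, Slc16a1, Slc16a3 and Slc2a1). So did 1 of 4 higher members and 6 of 26 members that were not called. The matching window of Pgam1, like that of Ldha, does not run into a GENCODE M21 transcript, which was checked for members only. For comparison, 25.4% of the 8938 measured genes with a window, 22.7% of the measured genes called lower and 18.5% of all 27025 genes with a window had a match. The E-box alone was in 3 of the 15 lower members and in 10.2% of measured genes. Slc2a3 and Idh3a had no entry in the table used. A match is a run of letters and was not tested for binding. Hif1a, the oxygen-regulated subunit of that factor, was at 138 CPM in T403A and 366 CPM in WT, and its part in these differences was not tested.

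Pyruvate enters mitochondria and is converted to acetyl-CoA by pyruvate dehydrogenase, which Pdk1 switches off by phosphorylation. Pdk1 (chromosome 2, 71873224 to 71903858) was at 61.9 CPM in T403A and 133 CPM in WT, 2.15-fold lower (2.01 to 2.32). The ratios of the E1 subunits of its target had intervals that included 1. Pdha1 was at 51.3 CPM in T403A and 53.2 CPM in WT, and Pdhb was at 62.8 CPM in T403A and 61.4 CPM in WT. The ratio of Pdk1 to Pdha1 was 0.481 times that of WT (0.427 to 0.542). Exons of Map3k15 on the opposite strand overlap 16.1% of those of Pdha1.

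In the pentose phosphate pathway no member reached 1.5-fold under any of the 3 scalings. The oxidative branch begins with G6pdx, the main source of NADPH, which was at 446 CPM in T403A and 378 CPM in WT, a ratio of 1.18 (1.14 to 1.22). Pgls, the lactonase, was at 71.8 CPM in T403A and 70.3 CPM in WT. Pgd, the second NADPH-making enzyme, was at 1373 CPM in T403A and 1566 CPM in WT, a ratio of 0.877 (0.862 to 0.892). Per kilobase Pgd led this branch with 213 RPKM in T403A and 243 RPKM in WT.

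In the branch that interconverts sugars, Tkt (transketolase) was at 598 CPM in T403A and 525 CPM in WT, a ratio of 1.14 (1.11 to 1.17). Taldo1 (transaldolase) was at 479 CPM in T403A and 514 CPM in WT, a ratio of 0.932. Rpia, the ribose-5-phosphate isomerase, was at 10.3 CPM in both libraries. Rpe, the epimerase, was at 42.4 CPM in T403A and 52.9 CPM in WT, a ratio of 0.801 (0.726 to 0.883). Overlapping exons touch G6pdx (13.6% of its bases, Ikbkg on the opposite strand), Rpe (17.9%, Kansl1l on the opposite strand) and Pgls (20.6%, Fam129c on the same strand).

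The branch point can be read without any scaling. G6pdx exceeded Gpi1 per kilobase by 3.08-fold in T403A and by 1.53-fold in WT, so their ratio was 2.01-fold higher in T403A (1.92 to 2.11). The ratio of Tkt to Tpi1 was 3.79-fold higher in T403A (3.62 to 3.98), but Tpi1 had the lowest ratio of the glycolytic steps. Pyruvate kinase (0.832) and hexokinase (0.844) were the glycolytic steps with ratios nearest to 1, so pairs with them would shift less. Gpi1 and Tpi1 are among the members whose levels near-identical copies make uncertain. The pair values are ratios of transcript counts and not of enzyme activity or flux.

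In the TCA cycle the entry enzyme Cs, citrate synthase, was at 226 CPM in T403A and 225 CPM in WT. The only called gene was Idh1, the cytosolic isocitrate dehydrogenase, which makes NADPH outside the mitochondrial cycle. Idh1 (ENSMUSG00000025950, chromosome 1, 65158616 to 65186500, minus strand) had 13034 counts in T403A and 5338 in WT. This is 654 CPM in T403A and 356 CPM in WT, 1.84-fold higher (1.78 to 1.90). Idh2, the mitochondrial form that uses the same cofactor, was at 42.5 CPM in T403A and 35.3 CPM in WT, a ratio of 1.20. The ratio of Idh1 to Idh2 was 1.53-fold higher in T403A (1.36 to 1.71).

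The NAD-linked enzyme of the cycle is built from the products of Idh3a, Idh3b and Idh3g, and its subunits had ratios on both sides of 1. Idh3a, the catalytic subunit, was at 30.3 CPM in T403A and 40.1 CPM in WT, a ratio of 0.757 (0.675 to 0.849). Idh3b was at 129 CPM in T403A and 98.0 CPM in WT, a ratio of 1.32, and Idh3g was at 88.4 CPM in T403A and 74.0 CPM in WT, a ratio of 1.19. The ratio of Idh3b to Idh3a was 1.74-fold higher in T403A (1.52 to 1.99) and that of Idh3g to Idh3a 1.58-fold higher (1.37 to 1.81). Idh3a had the lowest ratio of the 13 TCA members.

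Ogdh, the E1 subunit of oxoglutarate dehydrogenase, was at 184 CPM in T403A and 155 CPM in WT, a ratio of 1.19. The succinyl-CoA ligase subunits Sucla2, Suclg1 and Suclg2 had ratios of 1.02, 0.973 and 0.957, with intervals that all included 1. Fh1, fumarase, was at 40.3 CPM in T403A and 30.5 CPM in WT, a ratio of 1.32 (1.18 to 1.49). Mdh1, the cytosolic malate dehydrogenase of the shuttle that carries NADH electrons into mitochondria, was at 121 CPM in T403A and 85.5 CPM in WT, a ratio of 1.42 (1.32 to 1.52). Mdh2, the mitochondrial form, was at 92.1 CPM in T403A and 105 CPM in WT, a ratio of 0.875. The ratio of Mdh1 to Mdh2 was 1.62-fold higher in T403A (1.47 to 1.78). With library total scaling Idh3b, Fh1 and Mdh1 also reached 1.5-fold, at ratios of 1.51, 1.51 and 1.62.

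**Figure D4:**
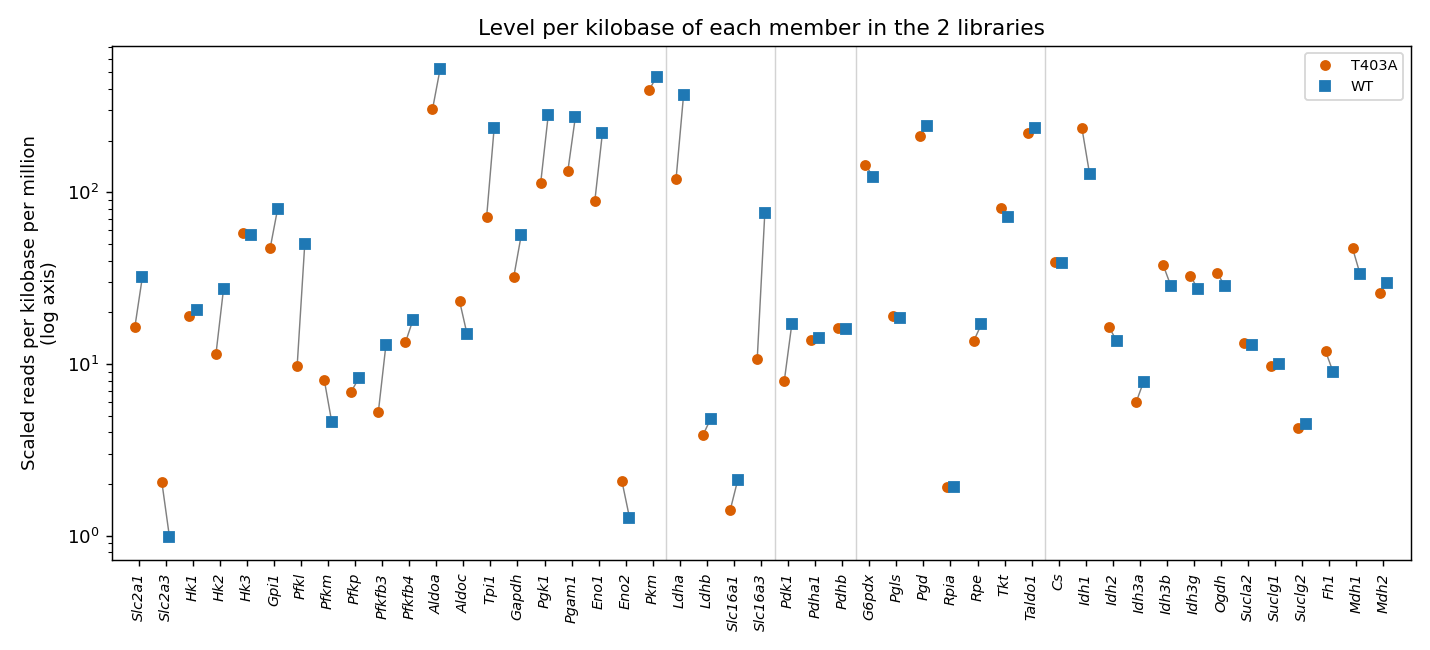
Level of each of the 47 members in RPKM, which is CPM per kilobase of gene length (log axis), in the T403A library (orange circles) and the WT library (blue squares), joined by a line for each gene, in pathway order with thin vertical lines between pathways. Slc16a3 stands at 10.7 in T403A and 75.7 in WT, Pfkl at 9.77 in T403A and 49.8 in WT, and Idh1 at 236 in T403A and 128 in WT.

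The order of the members by level per kilobase differed between the libraries. In T403A the 5 highest were Pkm, Aldoa, Idh1, Taldo1 and Pgd, from 392 to 213 RPKM. In WT they were Aldoa, Pkm, Ldha, Pgk1 and Pgam1, from 521 to 275 RPKM. Ldha ranked 8 in T403A and 3 in WT, Idh1 ranked 3 in T403A and 10 in WT, and Slc16a3 ranked 34 in T403A and 13 in WT. At the bottom, Slc16a1, Rpia, Slc2a3 and Eno2 held the last 4 places in both libraries, with levels from 1.40 to 2.08 RPKM in T403A and from 0.984 to 2.11 RPKM in WT. With no replicates, which neighbours in these orders differ beyond the spread between cultures cannot be said. The orders also depend on the deposited gene lengths. Ldha, Pgk1 and Pgam1 are among the members whose levels near-identical copies make uncertain.

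Further genes of the same pathways were examined from a list of 72, of which 59 were measured. Of these 6 were higher (10.2%) and 7 lower (11.9%), shares close to those of all measured genes, and the median log2 ratio was 0.02. Acod1, which diverts the TCA intermediate cis-aconitate to itaconate in activated macrophages, was at 314 CPM in T403A and 2244 CPM in WT, 7.14-fold lower (6.95 to 7.33). Among the other 20 genes listed for the TCA cycle and its branches, of which 19 were measured, none was called under TMM, and the succinate dehydrogenase genes Sdha, Sdhb, Sdhc and Sdhd had ratios from 0.909 to 1.12.

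Of 9 measured genes of glycogen and gluconeogenesis, 3 were lower and 1 higher. Gys1, glycogen synthase, was at 19.7 CPM in T403A and 68.0 CPM in WT, 3.45-fold lower (3.07 to 3.89). Pgm1, a phosphoglucomutase that links glycogen to glucose-6-phosphate, was at 27.8 CPM in T403A and 67.7 CPM in WT, 2.43-fold lower. Gbe1, the branching enzyme, was at 53.1 CPM in T403A and 85.4 CPM in WT, 1.61-fold lower. Pck2, the mitochondrial phosphoenolpyruvate carboxykinase, was at 31.5 CPM in T403A and 17.3 CPM in WT, 1.82-fold higher.

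Among transporters, Slc16a7, which encodes the pyruvate and lactate carrier MCT2, was at 77.4 CPM in T403A and 37.7 CPM in WT, 2.05-fold higher (1.86 to 2.26). Slc2a8, an intracellular glucose transporter, was at 20.8 CPM in T403A and 10.5 CPM in WT, 1.97-fold higher. Slc2a6 was at 249 CPM in T403A and 278 CPM in WT and was not called, and per kilobase it stood above Slc2a1 with 77.5 RPKM in T403A and 86.6 RPKM in WT. At pyruvate entry the kinases Pdk2 and Pdk3 stood on opposite sides, Pdk2 1.64-fold higher (19.3 CPM in T403A and 11.7 CPM in WT) and Pdk3 1.51-fold lower (15.4 CPM in T403A and 23.3 CPM in WT). In the pentose phosphate list H6pd, which works in the endoplasmic reticulum, was 1.56-fold lower, and Shpk, the sedoheptulose kinase, was 1.73-fold higher on 115 counts in T403A and 50 in WT. With library total scaling H6pd, Gbe1 and Pdk3 were no longer called, while Slc25a13 of the TCA list, Slc2a9, Pgam2 and Gapdhs were called higher at ratios from 1.54 to 1.85. The split of the 59 genes was then 10 higher and 4 lower, beside 2290 higher and 890 lower of all 11199 measured genes.

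The libraries also differed in transcripts of proliferation genes, which are not a measure of cell division. All 10 proliferation markers were called higher in T403A, beside 13.5% of all measured genes. Their summed level was 507 CPM in T403A and 83.8 CPM in WT. Of this Mki67 alone gave 258 CPM in T403A and 54.8 CPM in WT. Some WT values rest on few counts, such as 7 for Birc5. Transcripts of the mitochondrial genome were 2.46% of counts in T403A and 1.93% in WT. The part of proliferation or of mitochondrial transcripts in the metabolic differences was not tested.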

How the data were processed

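RNA of 1 T403A and 1 WT macrophage culture was sequenced on an Illumina instrument. The authors deposited whole-number read counts per Ensembl gene with a gene length in bases, per the file headers. Per the submitters' processing notes, the tools included HTSeq 0.9.1, HISAT2, cutadapt 1.15 and DESeq 1.30.0, with the build GRCm38. The sources used here do not give their roles, the strand setting, the treatment of multiply mapped reads or the RNA selection. Without strand, overlapping genes cannot be told apart.

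Symbols came from a table of Ensembl identifiers (21949 of 22060 rows). Of the 2 identifiers named Aldoa, the one with more counts was used. Positions are GENCODE M21 (GRCm38), whose exon union equalled the deposited length for 46 members. Counts were scaled by TMM (edgeR 4.0.16, R 4.3.3), and ratios carry exact Clopper-Pearson intervals (scipy 1.17.1). Ratios of gene pairs carry exact conditional intervals. Intervals of step sums use a normal approximation on the log scale. Library total and DESeq2 1.42.0 size factors were alternatives. Copies were searched with blastn 2.17.0. The members and lists were chosen with earlier results of these data known. All 47 members were named. Of the other pathway genes, up to 12 called at 1.5-fold were named by the interval bound nearest to 1. Sdha to Sdhd and Slc2a6 were added after their values were seen. Hif1a was named outside these rules. The interval and call were tested on simulated counts with counting error only, no spread between cultures and no TMM step. That test cannot speak to reproducibility or to the choice of scaling.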

Additional observations from a re-analysis of the deposited data

How the results depend on the processing

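With 15 members lower and 5 higher under TMM, library total scaling gave 12 lower and 8 higher. Of all 11199 measured genes it called 890 lower and 2290 higher. The median log2 ratio of the members turned to 0.0833, beside 0.205 for all measured genes. Library total scaling ended the calls of Gpi1, Aldoa and Slc16a1 and added Idh3b, Fh1 and Mdh1. Dividing by library totals raised every log2 ratio by 0.19, which is the cause of these shifts by construction. A threshold of 2-fold left 1 higher and 10 lower members. The lowest threshold tried, below 1.5-fold, gave 8 higher and 17 lower. The shares of all measured genes at that lowest threshold were not computed, so these counts cannot be judged against a background. Without the 10 members that have a near-identical copy, 8 were lower and the median log2 ratio was -0.0402, where fewer genes were counted. DESeq2 size factors, no count filter and a summed count of at least 100 left both counts as they were, and these and a prior count of 2 left the median between -0.114 and -0.109. The scalings tried shifted log2 ratios by about 0.19 at most. That is less than a 1.5-fold difference, so no called member could change direction. No paired analysis was possible because each genotype has 1 library, and for the same reason no library could be left out. Depth limits Eno2, Ldhb, Slc16a1, Rpia and Slc2a3, with 90 to 296 counts in each library.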
